A study of Rattus norvegicus with 8 samples.

Results

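Calsyntenins, neurexins and neuroligins are cell adhesion proteins of the synapse, and transcripts of 8 of their genes were followed in the medial thalamus of rats whose breathing had been obstructed in brief bouts. The members were the gene probes of the array that carry the names Clstn1, Clstn2, Clstn3, Nrxn2, Nrxn3, Nlgn1, Nlgn2 or Nlgn3. These 8 genes had 11 probes, out of 35561 gene names and 41012 probes on the array. The family was selected on the log2 difference between occlusion and control rats in these same arrays, so that contrast is given for its members as values without a test.

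Male Sprague-Dawley rats weighing 277 g were anaesthetised with urethane, and all of them carried a cuff around the trachea that could be inflated. In the occlusion group (4 rats) the cuff closed the airway for 2 to 4 breaths at a time, at least 15 open breaths separated the closures, and the brain was taken straight after 10 min of this. In the control group (4 rats) the cuff was left uninflated, and the brain was taken 70 min after surgery. Neither the rats' age nor the time from surgery to removal in the occlusion group is stated in the labels, and occlusion and time under anaesthesia cannot be told apart. RNA of each rat, labelled with Cy5, was hybridised to a 2-colour Agilent oligonucleotide array against a Cy3-labelled pool of all 8 rats, and every level below is a log2 ratio of the rat to that pool, in which 0 means equal to the pool and -1 means 2-fold lower.

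Neurexins sit in the presynaptic membrane and bind neuroligins in the postsynaptic membrane, and the pair holds the 2 sides of a synapse in register and influences which receptors collect there. Calsyntenins are transmembrane proteins with cadherin repeats. Clstn1 also links cargo vesicles to the kinesin motor through kinesin light chain, and Clstn3 is a postsynaptic adhesion protein that has been reported to bind neurexins. Thalamic relay neurons receive and send the glutamate synapses, and receive the inhibitory synapses, at which these proteins act.

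In thalamic relay and cortex markers, 1 control animal did not look like the other 7. The mean log2 ratio of 11 measured thalamic relay markers was -1.72 in control 3 and ranged from -0.36 to 0.14 elsewhere. For 9 cortex markers the mean was 1.75 in control 3 and -0.97 to -0.83 elsewhere. The pool contains RNA of control 3, so a gene high in that animal has lower ratios in the others, and the reverse. Slc17a6, which loads glutamate into vesicles of thalamic neurons, was at -2.99 in control 3, and Neurod2, a transcription factor of cortical excitatory neurons, was at 2.60. The library labelled control 3 therefore goes against its labelled tissue, and results are given with it and, for many, also without it. Occlusion 1 had the lowest relay mean after control 3, at -0.36. The other 7 animals also differed among themselves in further marker lists. Their means ran from -1.05 to 1.29 for choroid plexus, with occlusion 3 highest, and from -0.87 to 0.53 for habenula. For hypothalamus they ran from -1.08 to 0.65, and for reticular and other inhibitory neurons from -1.23 to 0.46. The share of spots well above background in Cy5 was 68.3% to 80.2% per array, and each of the 2 slides carried 2 occlusion and 2 control animals. With 4 animals a group, the number of arrays limits the precision.

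The start regions of the 3 calsyntenin genes differed in sequence. They are shown because Clstn1 and Clstn2 had the lowest group differences among the 8 genes while Clstn3 did not, and because a cyclic AMP response element, the site bound by the activity-regulated factor CREB, is a usual motif to look for in genes of active neurons. RefSeq promoter windows (GRCr8, 250 bases before to 50 bases after the gene start) were matched for 6 of the 8 members. The letters TGACGTCA, which read the same on both strands, lay in the windows of Clstn2 and Clstn3 and not in those of Clstn1, Nlgn1, Nlgn2 or Nlgn3. Over 33469 promoter windows of the same length, 612 (1.83%) held these letters. The motif contains a CG pair, and this share was not matched for the CG content of the member windows. The Clstn2 stretch is chr8:107516422-107516481 on the minus strand, with the motif in capitals and its first base 53 bases before the start. The Clstn3 stretch is chr4:159051180-159051239 on the minus strand, with the motif in capitals starting 144 bases before the start. For Clstn1 the 60 bases just before the start are shown, chr5:165314299-165314358 on the plus strand, with CG pairs in capitals.
Clstn2: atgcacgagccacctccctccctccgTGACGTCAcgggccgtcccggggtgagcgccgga
Clstn3: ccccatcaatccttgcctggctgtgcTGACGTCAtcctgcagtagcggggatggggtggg
Clstn1: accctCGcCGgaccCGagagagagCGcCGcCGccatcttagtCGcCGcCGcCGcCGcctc
The Clstn1 stretch held 11 CG pairs, and its whole window held 48, against 35 for Clstn2, 9 for Clstn3 and a median of 7 over all windows. G and C made up 81.7% of the Clstn1 window, against a median of 51.7% over all windows. The letters GCGTGGGCG, a site of EGR factors searched on both strands, were in none of the 6 member windows and in 182 (0.544%) of all windows. These matches describe letters in a window of the present assembly, and the arrays hold no measurement of binding there.

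Across all 31700 tested probes, 0 (0%) passed an adjusted p under 0.05 for occlusion against control (limma, Benjamini-Hochberg, two-sided), with adjusted p-values of 0.975 or more. An unadjusted p under 0.05 was reached by 976 probes (3.08%), 434 of them lower (1.37%) and 542 higher (1.71%). All 11 member probes were tested. They were well above background in Cy5 on 8 of 8 arrays, none was saturated, and each had 1 spot per array. Of the 11 probes, 5 had a lower and 6 a higher mean in occlusion animals, and for 1 probe, that of Clstn1, every occlusion animal lay below every control animal. Groups that did not overlap were seen for 777 of all tested probes (2.45%), 398 with occlusion lower (1.26%). With each gene taken at its brightest probe, the median log2 difference of the 8 genes was -0.06, and -0.04 without control 3, beside 0.0016 for all tested probes, whose median absolute difference was 0.08. The plot of member probes by animal shows every value.

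**Figure D1:**
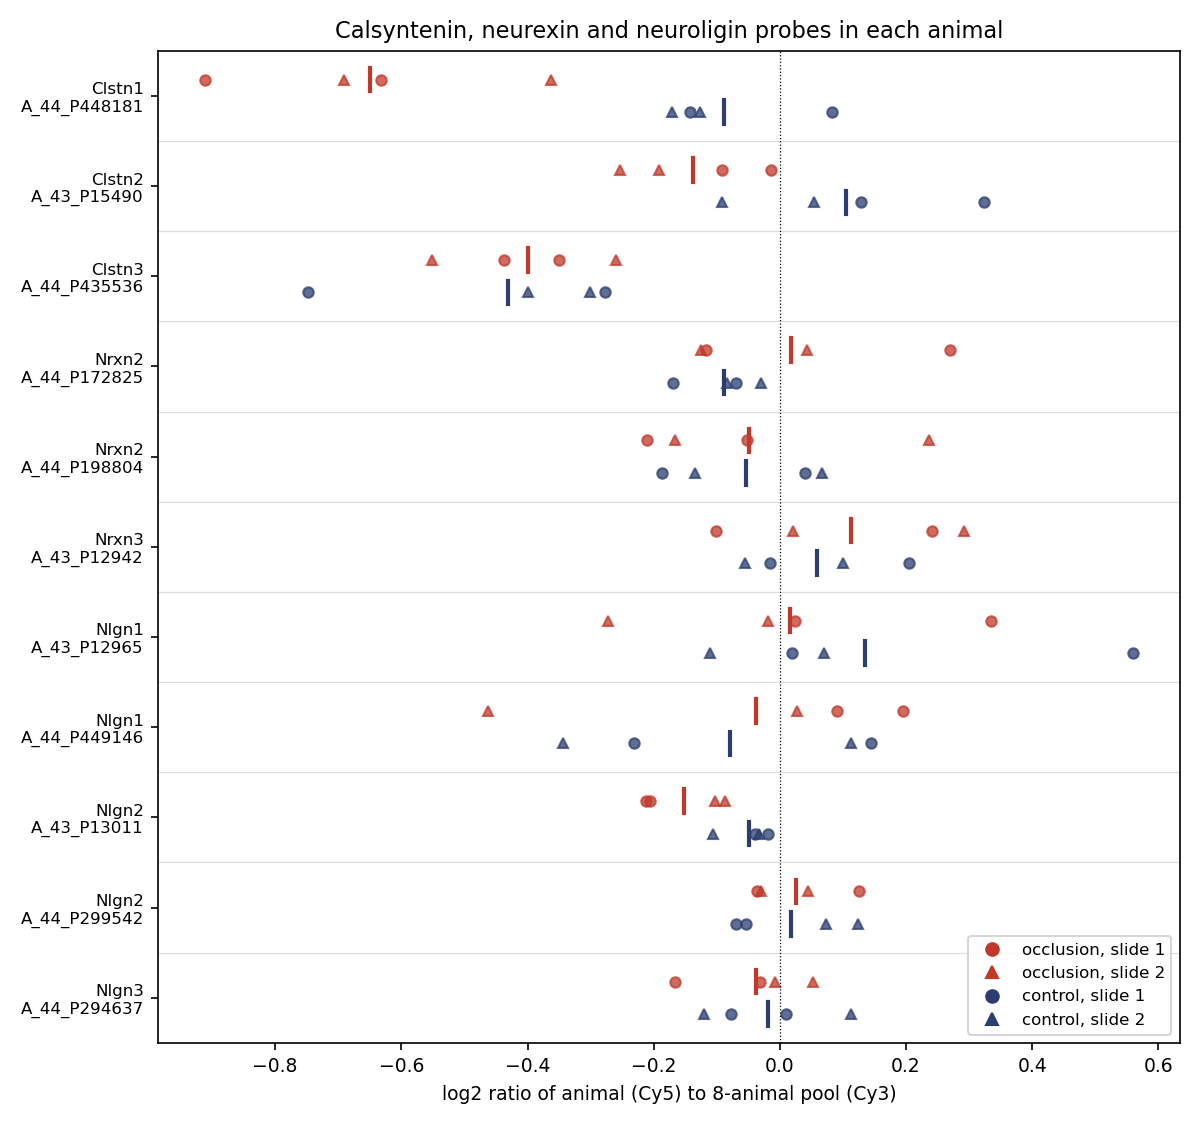
Log2 ratio of each animal (Cy5) to the pool of 8 animals (Cy3), on the horizontal axis, for the 11 member probes, with occlusion animals above control animals, slides by symbol and group means as bars. The 4 occlusion values of Clstn1 lie between -0.91 and -0.36, all below the lowest control value of -0.17, and the groups overlap for the other 10 probes.

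Clstn1 had the largest difference of the 8 genes. Its single probe, A_44_P448181, maps to chr5:166741551-166742564 on the plus strand of rn3, the build named in the file headers. That span of 1014 bases is longer than the 60 bases covered by each of the 9 probes outside Clstn1 and Clstn3. No exon annotation of that build was used here. Log2 ratios were -0.91, -0.63, -0.69 and -0.36 in occlusion animals 1 to 4, against -0.13, -0.17, 0.08 and -0.14 in control animals 1 to 4. The groups did not overlap, the gap between the highest occlusion and the lowest control animal was 0.19, and occlusion 1 was lowest and control 3 highest of the 8. The means were -0.65 ± 0.23 in occlusion and -0.09 ± 0.12 in control animals (SD, n = 4 each), a log2 difference of -0.56 with a standard error of 0.12, or an occlusion to control ratio of 0.678. Less Clstn1 RNA per cell and fewer cells that make it cannot be told apart in tissue RNA, here or for any gene below.

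The 2 channels of the Clstn1 spots were also compared as scanned. Cy5 spot signals as scanned were 987, 1225, 824 and 1124 units in occlusion animals 1 to 4, and 1274, 1607, 2003 and 1763 units in control animals 1 to 4, so the groups did not overlap before normalisation either, although such signals also carry each array's brightness. The Cy3 signal of the pool on the same spots lay between 893 and 1000 units on occlusion arrays and between 858 and 964 units on control arrays. The plot of Clstn1 signals shows both channels. The 2 groups were apart in 7 of 7 ways of turning signals into ratios, with gaps of 0.15 to 0.20. All 7 start from the same spots, on whose group difference the family was selected, so they are no separate result. The deposited table moreover repeats the ratios of the scanner software.

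The size of the Clstn1 difference depended on which animals were compared. It was -0.50 without control 3 and -0.42 without both occlusion 1 and control 3, the animals with the lowest relay marker means. Within slide 1, which holds those 2 animals, it was -0.74, and within slide 2 it was -0.38. Leaving out each animal in turn gave -0.66 to -0.47, and the difference was negative under all 25 alternatives. Because the groups did not overlap, leaving out animals or comparing within a slide could not change its sign. The family was selected on this difference, so the constant sign is no separate result. Whether the relay and cortex content of the samples bears on Clstn1 was not tested beyond these values. Occlusion 3 and occlusion 1 had background spots that disturbed their correction, described under processing, and with those spots left as they were the difference was -0.48.

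**Figure D2:**
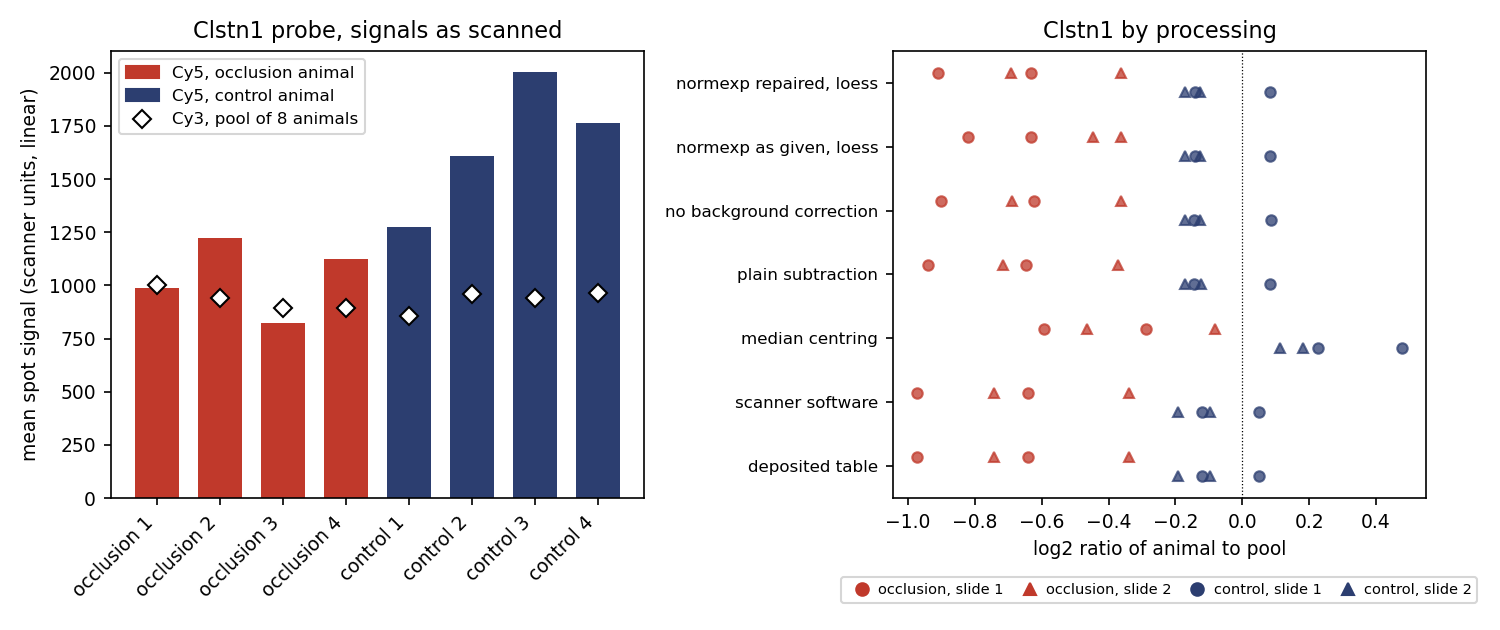
Left, mean Clstn1 spot signal as scanned (linear scanner units) of each animal in Cy5 (bars) and of the pool in Cy3 (diamonds), and right, log2 ratios of the same 8 animals under 7 ways of processing the signals, occlusion above control and slides by symbol. Occlusion bars reach at most 1225 units and control bars at least 1274 units, and the groups stay apart in each row on the right.

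Clstn2 values were also lower on average in occlusion animals, with overlap. Clstn2 encodes a second calsyntenin, found at postsynaptic membranes. Its probe A_43_P15490 (rn3 chr8:102366800-102366859, plus strand) read -0.01, -0.09, -0.25 and -0.19 in occlusion animals 1 to 4, against -0.09, 0.05, 0.32 and 0.13 in control animals 1 to 4. Control 1 lay among the occlusion animals, and control 3 was above all others. The means were -0.14 ± 0.11 in occlusion and 0.10 ± 0.17 in control animals (SD, n = 4 each), a difference of -0.24 with a standard error of 0.10. It was -0.17 without control 3, -0.28 on slide 1 and -0.20 on slide 2. It was negative in all 25 alternatives, which reuse the animals on whose difference the family was selected. The probe is placed on the plus strand of rn3, but the Clstn2 promoter window lies on the minus strand of GRCr8. For Clstn1, Clstn3, Nlgn1, Nlgn2 and Nlgn3 the strands of probe and window were the same. Whether the Clstn2 probe reads the Clstn2 transcript was not tested.

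Clstn3 values did not separate the groups in either direction. Probe A_44_P435536 (rn3 chr4:160881592-160882060, minus strand, a span of 469 bases) read -0.44, -0.35, -0.55 and -0.26 in occlusion animals 1 to 4, against -0.40, -0.30, -0.75 and -0.28 in control animals 1 to 4. The lowest animal was control 3, the reverse of its place for Clstn1 and Clstn2. Means were -0.40 ± 0.12 in occlusion and -0.43 ± 0.22 in control animals (SD, n = 4 each), a difference of 0.03 with a standard error of 0.12, which became -0.07 without control 3, 0.12 on slide 1 and -0.06 on slide 2. After loess, all 8 animals were below the pool for Clstn3 and 7 of 8 for Clstn1, whereas with median centring all 4 controls were above the pool for Clstn1, at 0.11 to 0.48. The pool was made from these same 8 rats, so an offset shared by all of them cannot be read as a level of RNA. Dyes were not swapped, and effects of dye, probe and normalisation on such an offset cannot be told apart.

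Nrxn2 and Nrxn3, the presynaptic receptors, were close between the groups. Each Nrxn gene makes long alpha and short beta forms and many splice forms, and a probe reads only those that hold its sequence. Nrxn2 probe A_44_P172825 (rn3 chr1:209476398-209476457, plus strand) read 0.27, -0.12, -0.12 and 0.04 in occlusion animals 1 to 4, against -0.03, -0.08, -0.17 and -0.07 in control animals 1 to 4. Occlusion 1 was alone at the high end, and the difference of 0.11 (standard error 0.10) became 0.02 without that animal and 0.08 without control 3. Its spots were among the bright ones of the array, with Cy5 signals of 33868 to 49027 units in occlusion and 36704 to 48914 units in control animals.

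The other Nrxn2 probe, A_44_P198804 (rn3 chr1:209475311-209475370, plus strand), lies 1087 bases away on the genome. It read -0.21, -0.05, -0.17 and 0.24 in occlusion animals 1 to 4, against -0.13, 0.07, -0.19 and 0.04 in control animals 1 to 4. Here occlusion 1 was the lowest animal, and occlusion 4 the highest. The difference was 0.0050 with a standard error of 0.11. The correlation of the 2 Nrxn2 probes over the 8 animals was r = -0.05, and they had the same sign in 5 of 8 animals.

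Nrxn3 probe A_43_P12942 (rn3 chr6:113908818-113908877, plus strand) read 0.24, -0.10, 0.02 and 0.29 in occlusion animals 1 to 4, against -0.06, 0.10, -0.02 and 0.20 in control animals 1 to 4. High and low animals occurred in both groups. Means were 0.11 ± 0.19 in occlusion and 0.06 ± 0.12 in control animals (SD, n = 4 each), a difference of 0.05 with a standard error of 0.11, and 0.03 without control 3. It was -0.02 on slide 1 and 0.13 on slide 2.

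The neuroligins are postsynaptic partners of neurexins. Nlgn1, found mainly at excitatory synapses, had 2 probes 759699 bases apart. Probe A_43_P12965 (rn3 chr2:111133660-111133719, minus strand) read 0.33, 0.02, -0.27 and -0.02 in occlusion animals 1 to 4, against -0.11, 0.07, 0.56 and 0.02 in control animals 1 to 4. Control 3 was the highest animal, and the difference of -0.12 (standard error 0.17) turned to 0.02 without it.

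Probe A_44_P449146 of Nlgn1 (rn3 chr2:111893359-111893418, minus strand) read 0.09, 0.19, -0.46 and 0.03 in occlusion animals 1 to 4, against -0.34, 0.11, 0.14 and -0.23 in control animals 1 to 4. Occlusion 3 was the lowest animal for both Nlgn1 probes, but for A_44_P449146 only after the background repair. With its background spots left as they were it read -0.07, above controls 1 and 4. The difference of 0.04 (standard error 0.17) was 0.19 on slide 1 and -0.10 on slide 2, and 0.14 without the repair. The correlation of the 2 probes over the animals was r = 0.70, and 0.73 without control 3, the highest of the 3 genes with a pair of probes. Both correlations include the repaired value of occlusion 3.

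Nlgn2, the neuroligin of inhibitory synapses, gave small values on dim spots. Probe A_43_P13011 (rn3 chr10:56660316-56660375, minus strand) read -0.21, -0.21, -0.09 and -0.10 in occlusion animals 1 to 4, against -0.11, -0.03, -0.04 and -0.02 in control animals 1 to 4. Control 1 lay within the occlusion range and the other 3 controls above it. With the background spots of occlusion 1 and 3 left as they were, occlusion 3 read -0.01, all 4 controls lay within the occlusion range, and the difference was -0.07. Means were -0.15 ± 0.07 in occlusion and -0.05 ± 0.04 in control animals (SD, n = 4 each), a difference of -0.10 with a standard error of 0.07, equally -0.10 without control 3, and -0.18 on slide 1 against -0.03 on slide 2.

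Probe A_44_P299542 of Nlgn2 (rn3 chr10:56661726-56661785, minus strand) did not share that order. It read 0.13, -0.04, -0.03 and 0.04 in occlusion animals 1 to 4, against 0.12, 0.07, -0.05 and -0.07 in control animals 1 to 4, a difference of 0.0079 with a standard error of 0.08. The pool's Cy3 signal on this spot was well above background on 6 of 8 arrays. The 2 Nlgn2 probes, 1410 bases apart, had r = -0.35 over the animals and the same sign in 4 of 8.

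Nlgn3, which occurs at both excitatory and inhibitory synapses and in glia, was nearly flat. Probe A_44_P294637 (rn3 chrX:89471253-89471312, plus strand) read -0.03, -0.17, 0.05 and -0.01 in occlusion animals 1 to 4, against 0.11, -0.12, 0.01 and -0.08 in control animals 1 to 4. The groups lay on top of each other. The difference was -0.02 with a standard error of 0.08, and Cy5 signals were 245 to 272 units in occlusion and 255 to 291 units in control animals.

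**Figure D3:**
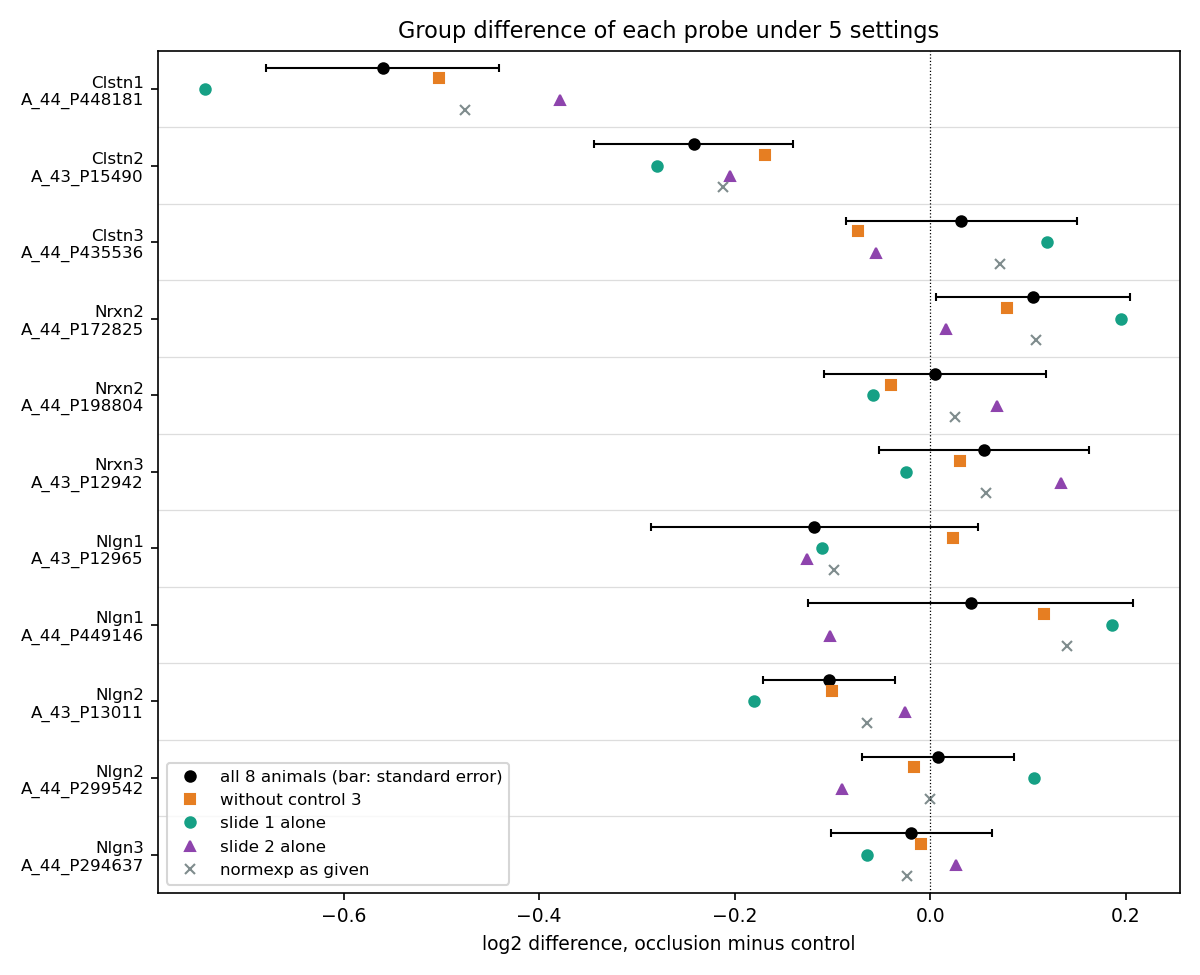
Log2 difference, occlusion minus control, of the 11 member probes over all 8 animals (black, bar: standard error) and under 4 other settings. Clstn1 stays between -0.74 and -0.38 and Clstn2 between -0.28 and -0.17 in the settings drawn, while the Clstn3, Nlgn1 and Nlgn3 points and those of A_44_P198804, A_43_P12942 and A_44_P299542 fall on both sides of 0.

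The order of the 8 genes by log2 difference, each at its brightest probe, was Clstn1 (-0.56), Clstn2 (-0.24), Nlgn1 (-0.12), Nlgn2 (-0.10), Nlgn3 (-0.02), Clstn3 (0.03), Nrxn3 (0.05) and Nrxn2 (0.11). Clstn1 had the largest SD over the 8 animals, 0.34, but that SD includes its group difference. Within occlusion and control animals its SDs were 0.23 and 0.12. The Nlgn1 probes varied more within groups, at 0.25 and 0.29 for A_43_P12965 and 0.29 and 0.24 for A_44_P449146. Over the 8 animals, 6 of the 11 probes had an SD above the median of all tested probes, 0.15.

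Control 3 lay outside the range of the other 7 animals for 5 of the 11 probes. It was highest for Clstn1, Clstn2 and Nlgn1 probe A_43_P12965, and lowest for Clstn3 and Nrxn2 probe A_44_P172825. Correlations between members over the 8 animals are given as description, since the arrays share a pool. Of 28 pairs of genes, 14 were positive and 14 negative. The highest pair was Clstn2 with Nlgn1 (r = 0.81, and 0.58 without control 3), followed by Clstn1 with Nlgn2 (0.79, and 0.76 without control 3) and Nrxn2 with Nrxn3 (0.65, and 0.61 without control 3). Clstn1, Clstn2, Nlgn1 and Nlgn2 were all lower on average in occlusion animals, so correlations among them include those group differences. All pairs include the repaired values of occlusion 1 and occlusion 3. The lowest pairs were Clstn1 with Nrxn2 (-0.57, and -0.47 without control 3) and Nlgn2 with Nrxn2 (-0.53, and -0.47 without control 3). Without control 3 the highest pair was Nlgn1 with Nrxn2, at 0.77, against 0.17 over 8 animals. Clstn1 and Clstn3 had r = -0.14 over 8 animals and 0.61 without control 3. The means of 10 general neuron markers, set beside the members in the plot of marker lists, were -0.19 to 0.25 in occlusion and -0.12 to -0.0041 in control animals.

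**Figure D4:**
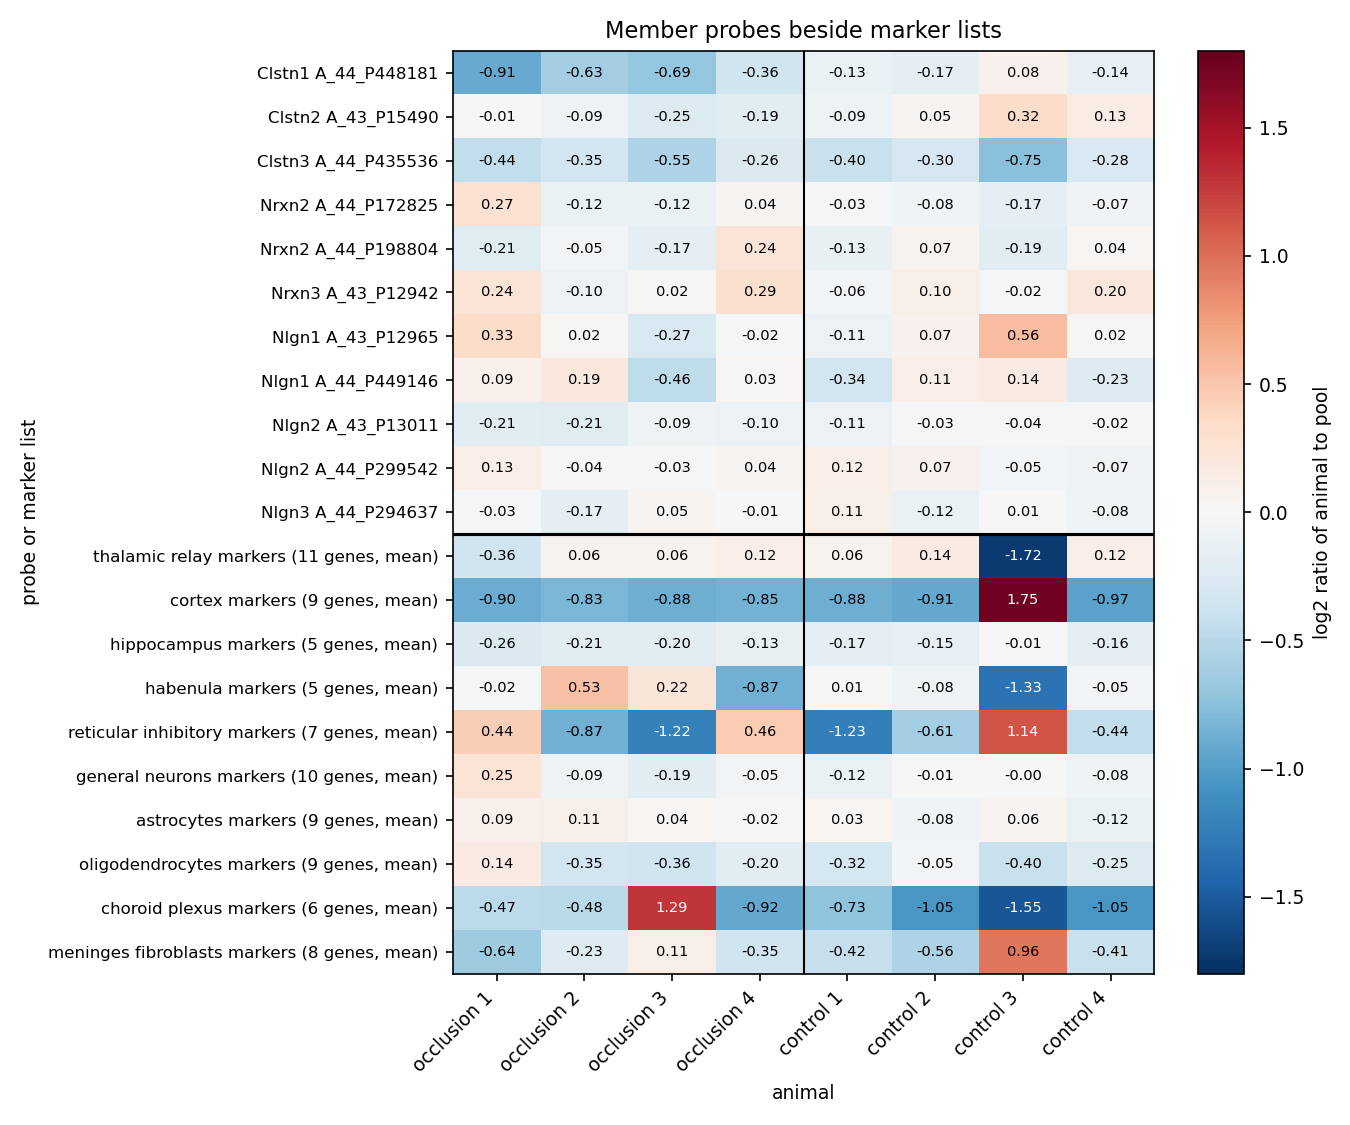
Log2 ratio to the pool of each member probe (upper rows) and the mean of each marker list (lower rows) in each animal, occlusion animals left of the line and control animals right of it, coloured from blue (lower) to red (higher). Control 3 stands out in the relay (-1.72) and cortex (1.75) rows, and the Clstn1 row is lower in all 4 occlusion animals than in any control animal.

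The genes that work with these proteins were described by role, 1 probe a gene, from lists of 121 genes of which 104 were tested. None passed the adjusted threshold in either direction (0% of all probes did), 45 had a higher and 59 a lower mean in occlusion animals, and their median difference was -0.04, or -0.0081 without control 3. Over the 12749 tested genes with a symbol, 49.2% were lower, and 50.7% without control 3.

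Among secreted ligands of neurexins, 6 of 13 genes were tested, 4 higher and 2 lower, with a median of 0.08 and of 0.04 without control 3. Nxph3, a neurexophilin that binds alpha neurexins, differed by -0.22 and by -0.0052 without control 3. Cbln2, a cerebellin that bridges neurexins to glutamate delta receptors, differed by 0.24 and by 0.08 without control 3. Both values thus shrank when that animal was left out.

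Of other postsynaptic partners of neurexins, 12 of 15 were tested, 9 higher and 3 lower, with a median of 0.01. Without control 3 the list had 7 higher and 5 lower genes and a median of 0.0083. Dag1, dystroglycan, differed by 0.13 (standard error 0.11). Gpc4, a heparan sulfate glypican, differed by -0.15 and by 0.13 without control 3. Among other synaptic adhesion genes 30 of 36 were tested, 15 higher and 15 lower, with a median of -0.01. Without control 3 these were 18 higher and 12 lower, with a median of 0.01. Slitrk6 was at 0.11, 0.08, 0.24 and 0.08 in occlusion animals 1 to 4, against -0.20, 0.01, -1.61 and 0.06 in control animals 1 to 4, a difference of 0.56 that was 0.17 without control 3. Cntnap4, a relative of neurexins in inhibitory neurons, differed by -0.21 and by 0.02 without control 3.

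The postsynaptic scaffolds that bind neuroligins or the receptors beside them had lower means in occlusion animals for most genes, less so without control 3. Of 19 tested of 20 listed, 16 were lower and 3 higher, with a median of -0.16. The median ratio of the list was -0.04, -0.11, -0.20 and -0.13 in occlusion animals 1 to 4, against -0.20, -0.03, 0.33 and -0.01 in control animals 1 to 4. Without control 3 the list had 13 lower and 6 higher genes and a median of -0.09, within slide 1 the median was -0.26, and within slide 2 it was -0.02. Dlgap1, which ties PSD-95 to Shank proteins, was at -0.64, -0.58, -0.66 and -0.60 in occlusion animals 1 to 4, against -0.43, -0.39, 0.82 and -0.41 in control animals 1 to 4. Its groups did not overlap, and its difference of -0.52 was -0.21 without control 3. Snx27, a sorting nexin that returns receptors to the synapse, differed by 0.22 (standard error 0.11).

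All 19 presynaptic scaffold genes were tested, 13 lower and 6 higher, with a median of -0.09 and of -0.06 without control 3. Lin7b, a partner of CASK beneath neurexins, read -0.55, -0.45, -0.26 and -0.16 in occlusion animals 1 to 4, against -0.05, -0.11, 0.50 and -0.15 in control animals 1 to 4. The gap between the groups was narrow, at -0.157 in occlusion 4 and -0.155 in control 4, and the difference of -0.40 was -0.25 without control 3. Pclo, piccolo of the active zone, differed by 0.25, with 0.70 on slide 1 and -0.20 on slide 2.

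Clstn1 is carried by kinesin and cut by the proteases that also cut amyloid precursor protein, and all 18 genes listed for these steps were tested. Of these 8 were higher and 10 lower, with a median of -0.03. Without control 3, 6 were higher and 12 lower, and the median was again -0.03. The median was negative in 22 of 25 alternatives, and lowest on slide 1 alone, at -0.09. It was above 0 without the background repair, at 0.02, and without occlusion 3, at 0.0078. Aph1a, a subunit of gamma-secretase, was at -0.94, -0.87, 0.65 and 0.98 in occlusion animals 1 to 4, against 0.44, 0.92, 0.29 and 0.73 in control animals 1 to 4. Its low animals were the 2 occlusion animals on slide 1, and the difference of -0.64 (standard error 0.43) was -1.42 on slide 1 and 0.13 on slide 2. Psen2, the catalytic presenilin 2, differed by 0.33 with 3 control values, since an outlier spot was left out. Over the 104 tested genes of these lists, groups were apart for 4 lower genes (Cadm4, Lrrc4b, Dlgap1 and Lin7b) and 1 higher gene (Slitrk6), of which Cadm4 and Lrrc4b are named after their values were seen. Over all tested probes, 398 (1.26%) were apart and lower and 379 (1.20%) apart and higher.

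**Figure D5:**
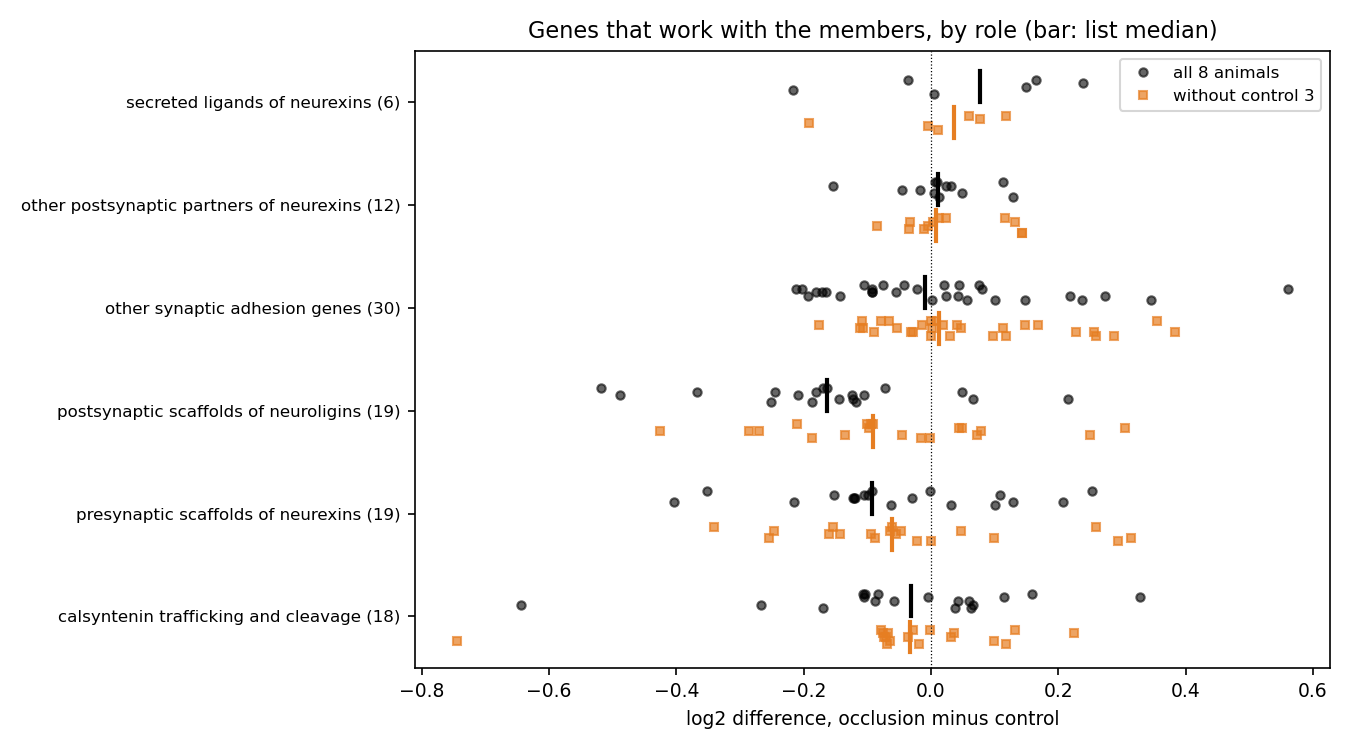
Log2 difference, occlusion minus control, of each tested gene in 6 lists by role (number tested in brackets), over all 8 animals (black) and without control 3 (orange squares), with list medians as bars. The postsynaptic scaffold median is -0.16 with all animals and -0.09 without control 3.

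The 5 genes whose log2 ratios followed Clstn1 most closely, among 12333 genes compared over the 8 arrays, were Pcnx2 (r = 0.99), Xylt1 (0.97), Zfp580 (0.96), Rnf126 (0.96) and Lrrn2 (0.96). Without control 3 the correlations were 0.98, 0.95, 0.97, 0.95 and 0.95 in the same order. All 5 were lower on average in occlusion animals, with differences of -0.17, -0.27, -0.15, -0.25 and -0.26. Likeness to Clstn1 includes its group difference, so these differences are no separate result. Xylt1, which starts the glycosaminoglycan chains of proteoglycans, read -0.10, -0.01, -0.15 and 0.14 in occlusion animals 1 to 4, against 0.20, 0.23, 0.33 and 0.22 in control animals 1 to 4. Lrrn2, a leucine-rich repeat membrane protein, read -0.46, -0.35, -0.37 and -0.14 in occlusion animals 1 to 4, against -0.14, -0.07, 0.09 and -0.16 in control animals 1 to 4.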

How the data were processed

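Per the file headers, the authors' spot intensities came from Agilent Feature Extraction, version 9.5.1.1. The deposited value table repeats the log10 ratio of Cy5 over Cy3 from that software, within 1% for all 45018 spots of each array, with column medians of 0, and its centring is not stated. The animal is in Cy5 per the labels, which sets the direction. From the linear intensities, limma 3.58.1 (R 4.3.3) corrected mean signal for median background with normexp (offset 50) and fitted loess within arrays, giving control and outlier spots no weight. Outliers were then dropped and repeat spots averaged.

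Normexp had failed on 2 arrays. In 5 spots of occlusion 3 and 2 of occlusion 1 the local background exceeded the signal by over 100, and the correction then added a median of 611 units to Cy5 on occlusion 3 and 14.9 on occlusion 1, against -4.78 to -0.30 on the other 6. These spots were given their array's median background. This repair was chosen after values had been seen, and it enlarged the Clstn1 difference from -0.48 to -0.56 on the log2 scale.

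A probe whose Cy5 signal was well above background on 4 or more of the 8 arrays, with 2 values per group, entered a two-sided limma fit (lmFit, eBayes, Benjamini-Hochberg over all probes, threshold 0.05). The fit was first run on simulated independent noise with known changes added. That check required only that the mean estimates matched the known changes, and it held no animal that departs like control 3. Gene names came from a RefSeq table (GRCr8), by accession for 10735 probes, by symbol for 5506 and by synonym for 3718, and 21053 probes stayed without one. The genes named are all members, the lowest and highest of each list, and the 5 genes most like Clstn1. Members and lists were chosen with earlier results of these data known. One gene of the partner lists is not reported here and was left out of their counts. Figures were drawn with matplotlib 3.10.9. Alternatives covered background, scaling, filter, slide and replicate blocks, array weights, single slides and animals left out.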

Additional observations from a re-analysis of the deposited data

Results flagged for a closer look

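The checks of member probes and marker lists numbered 50 in all. None of the 22 checks of member probes, each within the 4 animals of a group, found an animal far from its group. With 4 values such a check can miss an animal that departs. Control 3 lay outside the range of the other 7 animals for 5 of the 11 member probes. Among the marker lists, 7 values lay far from the other 3 animals of their group by Dixon's criterion, which chance meets in about 1 in 20 groups. Control 3 accounted for 5 of them, with mean log2 ratios of -1.72 for thalamic relay, 1.75 for cortex, -0.0125 for hippocampus, -1.33 for habenula and 0.957 for meninges and fibroblast markers. Occlusion 1 accounted for the other 2, with -0.359 for thalamic relay and -1.06 for red cell markers. Clstn1 was lowest in occlusion 1 and highest in control 3, and its log2 difference between occlusion and control animals without both was -0.42.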

How the results depend on the processing

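Results were recomputed under 25 alternatives, or 24 for the dimmer probe of Nlgn1, Nlgn2 and Nrxn2. The count of probes past the adjusted threshold was 0 in 24 of them, and leaving out single animals gave 0 to 0, with 703 to 1573 probes at an unadjusted p under 0.05. It was 1 when background was left as given and control 3 was also left out, an alternative chosen after seeing the data (A_42_P577431, higher in occlusion animals, adjusted p = 0.0368 in limma). Clstn1, Clstn2 and Nlgn2 probe A_43_P13011 were negative throughout, at -0.74 to -0.38, -0.31 to -0.14 and -0.22 to -0.03. For Clstn1 the groups did not overlap, so leaving out animals could not change the sign. The alternatives reuse the arrays on which the family was selected, so these constant signs are no separate result. Nlgn2 probe A_44_P299542 was -0.10 with the ratios of the scanner software, 0.11 on slide 1 and -0.09 on slide 2.

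The median log2 difference of the 8 member genes was -0.09 to -0.02 over all alternatives and -0.08 to -0.03 when leaving out single animals. The presynaptic scaffold median was -0.142 with the scanner software's ratios, -0.142 with the deposited table, 0.0066 with Cy5 alone, -0.044 with array weights, -0.038 on slide 2 alone and -0.030 without occlusion 1 and control 3. The median of secreted neurexin ligands was 0.21 on slide 1 alone. Causes were not tested.

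Same-numbered animals correlated at -0.16, 0.09, -0.14 and 0.05. They always lay on opposite slides, so these values cannot decide whether the numbers mark pairs. Here the numbers are used only to name animals. With the replicate number as a block in limma, 0 probes passed and 900 had an unadjusted p under 0.05, against 976 without it, and the block changed no call.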
